A study of Mus musculus with 32 samples.

Results

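The genes described here encode the carriers and enzymes of central carbon metabolism: glucose uptake, glycolysis, lactate production and export, the entry of pyruvate into mitochondria, the tricarboxylic acid (TCA) cycle and the pentose phosphate pathway. They were listed by symbol, and all 36 were found among the 21886 gene rows of the count table. By branch there were 2 glucose carriers, 16 glycolysis genes, 4 lactate genes, 3 genes of pyruvate entry, 7 TCA genes and 4 pentose phosphate genes. All 36 also passed the low-count filter (at least 1 CPM, counts scaled to a common library total, in at least 16 libraries), which left 11772 genes tested.

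The cells were mouse presomitic mesoderm (PSM), the tissue that forms the somites, made in culture from epiblast stem cells of the line AES0204 with a luciferase reporter for Hes7, a cyclic gene of the segmentation clock. Before sampling, every dish had been kept for 30 h in CDMi medium with 10 µM SB431542 and 250 nM LDN193189 (inhibitors of activin and BMP receptors), 10 µM CHIR99021 (a GSK3 inhibitor that turns on Wnt signalling) and 20 ng/ml bFGF. The medium was then renewed with CHIR99021 lowered to 1 µM and the other agents kept, so no dish was untreated. Dishes of 35 mm were frozen one by one in a pair of independent time courses, Ex4 (16 libraries, 155 to 405 min) and Ex5 (16 libraries, 165 to 425 min). The labels do not say what minute 0 is. Both courses used the same reporter line and the same agents, each time has 1 library per course, and every difference between Ex4 and Ex5 is a difference between 2 runs of the culture, in which biological and technical sources cannot be told apart.

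Glycolysis splits glucose into pyruvate in the cytosol. Pyruvate is then either reduced to lactate by lactate dehydrogenase and exported, or taken into mitochondria, where the pyruvate dehydrogenase complex feeds it to the TCA cycle. The pentose phosphate pathway branches off at glucose 6-phosphate and yields NADPH and ribose for nucleotides. In the embryo, glycolytic transcripts are known to be high in the posterior PSM and tail bud and to decline toward the forming somites, and many of these genes are known targets of the oxygen-sensing factor HIF1A and of MYC.

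Depth was 19.3 to 29.5 M counts per library in Ex4 and 16.1 to 28.6 M in Ex5. The members took 1.60 to 1.74% of all counts in Ex4 libraries and 1.71 to 1.91% in Ex5 libraries, and the mitochondrially encoded transcripts 0.324 to 0.682% and 0.249 to 0.410%. All 8 PSM markers checked were expressed, with a summed level of 2380 to 3029 CPM in Ex4 and 3013 to 3646 CPM in Ex5, so the level of PSM markers also differed between the courses. Markers of the epiblast, the state before mesoderm, fell from a summed mean of 178 CPM in the first 4 libraries to 84.5 CPM in the last 4 of Ex4, and from 131 to 54.4 CPM in Ex5. Of the 6 epiblast markers 2 were tested, Pou5f1 and Cdh1, and both fell, while Zfp42 was at 0 in 25 of 32 libraries. Summed markers of anterior PSM and somite stayed at or below 9.51 CPM, of the neural lineage at or below 17.4 CPM, of endoderm at or below 2.35 CPM and of lateral and vascular mesoderm at or below 4.87 CPM. Of these lists Mesp2, Olig2, Cer1 and Hand2 were at 0 in 7, 11, 29 and 20 libraries, while Mesp1, Meox1, Pax6, Sox1, Foxa2, Gata6 and Kdr were at 0 in none, with means of 3.28, 1.70, 11.6, 2.20, 1.06, 0.412 and 1.56 CPM. Markers also moved over the same hours (log2 per 100 min, edgeR, adjusted p under 0.05 in the fit described below). Of the PSM markers Tbx6 (0.18), Dll3 (0.17), Hes7 (0.13) and Dll1 (0.05) rose, and Msgn1 (-0.11) and T (-0.10) fell. Of the other lists Meox1 (0.38) and Pax6 (0.17) rose, and Mesp1 (-0.17), Foxa2 (-0.27) and Kdr (-0.26) fell. The Ex4 libraries at 230, 260 and 405 min deviated most from the fitted curves of the members (SD over members 0.168, 0.175 and 0.122 log2), and members' calls lost without any one of the 3 are given below. In such bulk RNA, fewer cells of a type and less RNA per cell cannot be told apart, and the part of these markers in the changes below was not tested.

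Because several members below moved together and many are known HIF1A targets, the start regions of 4 genes that rose and of Slc2a1, which fell, are shown. Each is 300 bases, 250 before to 50 after a RefSeq transcription start on GRCm38.p6, written on the strand of the gene. Capitals mark the hypoxia response core, ACGTG or GCGTG, on either strand, so that CACGT and CACGC are its reverse complements, and a CACGTG E-box holds the core on both strands. The regions are chr11:120948817-120949116 on the plus strand for Slc16a3, chr7:46845554-46845853 on the plus strand for Ldha (of 2 starts listed, the one with more cores), chrX:106186850-106187149 on the plus strand for Pgk1, chr2:71872974-71873273 on the plus strand for Pdk1 (of 2 starts listed, the one with a core) and chr4:119108495-119108794 on the plus strand for Slc2a1.
Slc16a3: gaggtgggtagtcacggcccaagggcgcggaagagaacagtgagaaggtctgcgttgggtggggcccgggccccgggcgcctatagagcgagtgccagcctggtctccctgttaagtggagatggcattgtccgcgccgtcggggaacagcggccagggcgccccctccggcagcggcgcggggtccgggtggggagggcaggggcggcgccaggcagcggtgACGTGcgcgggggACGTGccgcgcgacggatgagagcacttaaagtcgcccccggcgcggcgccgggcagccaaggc
Ldha: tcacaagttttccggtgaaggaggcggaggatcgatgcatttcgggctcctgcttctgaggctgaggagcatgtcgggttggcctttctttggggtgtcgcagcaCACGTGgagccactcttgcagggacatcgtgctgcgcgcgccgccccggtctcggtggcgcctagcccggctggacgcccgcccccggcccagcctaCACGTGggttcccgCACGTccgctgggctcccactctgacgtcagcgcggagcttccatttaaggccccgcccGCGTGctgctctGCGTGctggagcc
Pgk1: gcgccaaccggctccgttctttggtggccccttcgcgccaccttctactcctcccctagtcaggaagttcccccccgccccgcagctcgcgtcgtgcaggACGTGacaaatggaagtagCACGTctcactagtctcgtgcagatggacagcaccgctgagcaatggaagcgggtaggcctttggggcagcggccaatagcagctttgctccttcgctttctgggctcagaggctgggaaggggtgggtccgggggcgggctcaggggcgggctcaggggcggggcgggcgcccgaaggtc
Pdk1: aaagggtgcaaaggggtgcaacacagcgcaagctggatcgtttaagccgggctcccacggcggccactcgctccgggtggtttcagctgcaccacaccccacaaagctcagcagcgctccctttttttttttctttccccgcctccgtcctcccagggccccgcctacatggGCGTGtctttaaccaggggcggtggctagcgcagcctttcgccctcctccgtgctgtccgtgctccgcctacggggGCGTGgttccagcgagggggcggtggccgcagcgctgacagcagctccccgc
Slc2a1: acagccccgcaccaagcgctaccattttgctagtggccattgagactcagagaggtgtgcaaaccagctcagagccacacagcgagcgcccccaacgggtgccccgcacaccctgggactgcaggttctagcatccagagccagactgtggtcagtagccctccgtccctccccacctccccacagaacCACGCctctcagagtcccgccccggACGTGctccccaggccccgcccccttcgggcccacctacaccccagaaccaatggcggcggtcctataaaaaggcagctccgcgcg

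The Slc16a3 and Pgk1 regions each hold 2 ACGTG cores, the Ldha region 5 ACGTG and 2 GCGTG cores with 2 CACGTG E-boxes, the Pdk1 region 2 GCGTG cores, and the Slc2a1 region 1 of each core. Of 36 members 34 had an entry in the promoter table, with 53 starts. ACGTG lay in 50.94% of these 53 windows, in 25.52% of the 11962 windows of tested genes and in 19.62% of all 32851 windows. GCGTG lay in 60.38% of member windows and in 52.07% of those of tested genes. CACGTG, which overlaps ACGTG, lay in 13.21% and 10.08%. Windows of the same gene can overlap, as among the 6 starts of Ogdh, whose windows all hold ACGTG. By gene, ACGTG lay in 55.88% of 34 members and in 29.75% of 9327 tested genes. GCGTG lay in 70.59% and 58.13% of these genes, and CACGTG in 14.71% and 12.1%. A match describes the letters in the window and was not tested as a binding site. The 5 regions shown were chosen among those with a core. The regions of Tpi1 and Cs, which rose, hold none, nor do those of Gpi1 and Eno2, which were not called.

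Levels between genes are given as CPM per kilobase of exon (CPM/kb), a level that takes account of transcript length. The most abundant transcripts of their branches were Pkm (pyruvate kinase) at a mean of 646 CPM/kb, Ldha (the lactate dehydrogenase subunit that favours lactate) at 472, Slc2a1 (the glucose carrier GLUT1) at 177, Tkt (transketolase) at 124, Mdh2 (mitochondrial malate dehydrogenase) at 105 and Pdha1 (the catalytic subunit of pyruvate dehydrogenase) at 73.7 CPM/kb. After Pkm among glycolysis genes came Eno1 (enolase) at 481, Aldoa (aldolase) at 401, Pgk1 (phosphoglycerate kinase) at 263 and Gapdh at 174 CPM/kb. At the low end stood the neuronal enolase Eno2 at 0.286, the platelet phosphofructokinase Pfkp at 0.941 and the hexokinase Hk1 at 1.39 CPM/kb. Hk2, the inducible hexokinase, was at 36.1 CPM/kb. Without division by length the highest member stayed the same in 5 of 6 branches, and among the glucose carriers Slc2a3 (the high-affinity carrier GLUT3) at a mean of 853 CPM stood above Slc2a1 at 620 CPM. Positions below the highest also changed, as with Gapdh at 719 CPM above Pgk1 at 591 CPM.

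The first comparison asks whether these transcripts rose or fell over the sampled hours. Of 16 glycolysis genes 12 rose slowly, 9 of them in both courses taken singly. The lactate exporter Slc16a3, Ldha and the kinase Pdk1, which shuts pyruvate out of the TCA cycle, rose too, while both glucose carriers, Ldhb and the more abundant monocarboxylate carrier Slc16a1 fell. The trend is the mean of the Ex4 and Ex5 slopes, in log2 per 100 min, tested with edgeR's quasi-likelihood F test and Benjamini-Hochberg adjustment over all 11772 genes. Of 36 members 19 rose, 5 fell and 12 were not called, with a median of 0.05 log2 per 100 min. Of all tested genes 26.7% rose and 26.5% fell, with a median of -0.0016, so a call in one direction was frequent in general. In the courses taken singly, 16 members rose and 4 fell in Ex4 (background 16.8% and 15.4% of genes), and 17 rose and 4 fell in Ex5 (background 25.8% and 25.2%). The same 14 members rose and the same 2 (Slc2a1 and Ldhb) fell in both courses. Some of these calls were lost in alternatives (adjusted p, edgeR). The Ex4 slope of Pkm was lost with upper-quartile factors (0.056) and within 165 to 405 min (0.081). That of Tkt was lost in both settings (0.076 and 0.075). With library totals the Ex5 slopes of Aldoa (0.053) and Cs (0.085) were lost. Leaving out a single library could cost the Ex4 calls on Pkm, Tkt, Pfkp and Pdk1 and the Ex5 call on Aldoa.

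**Figure D1:**
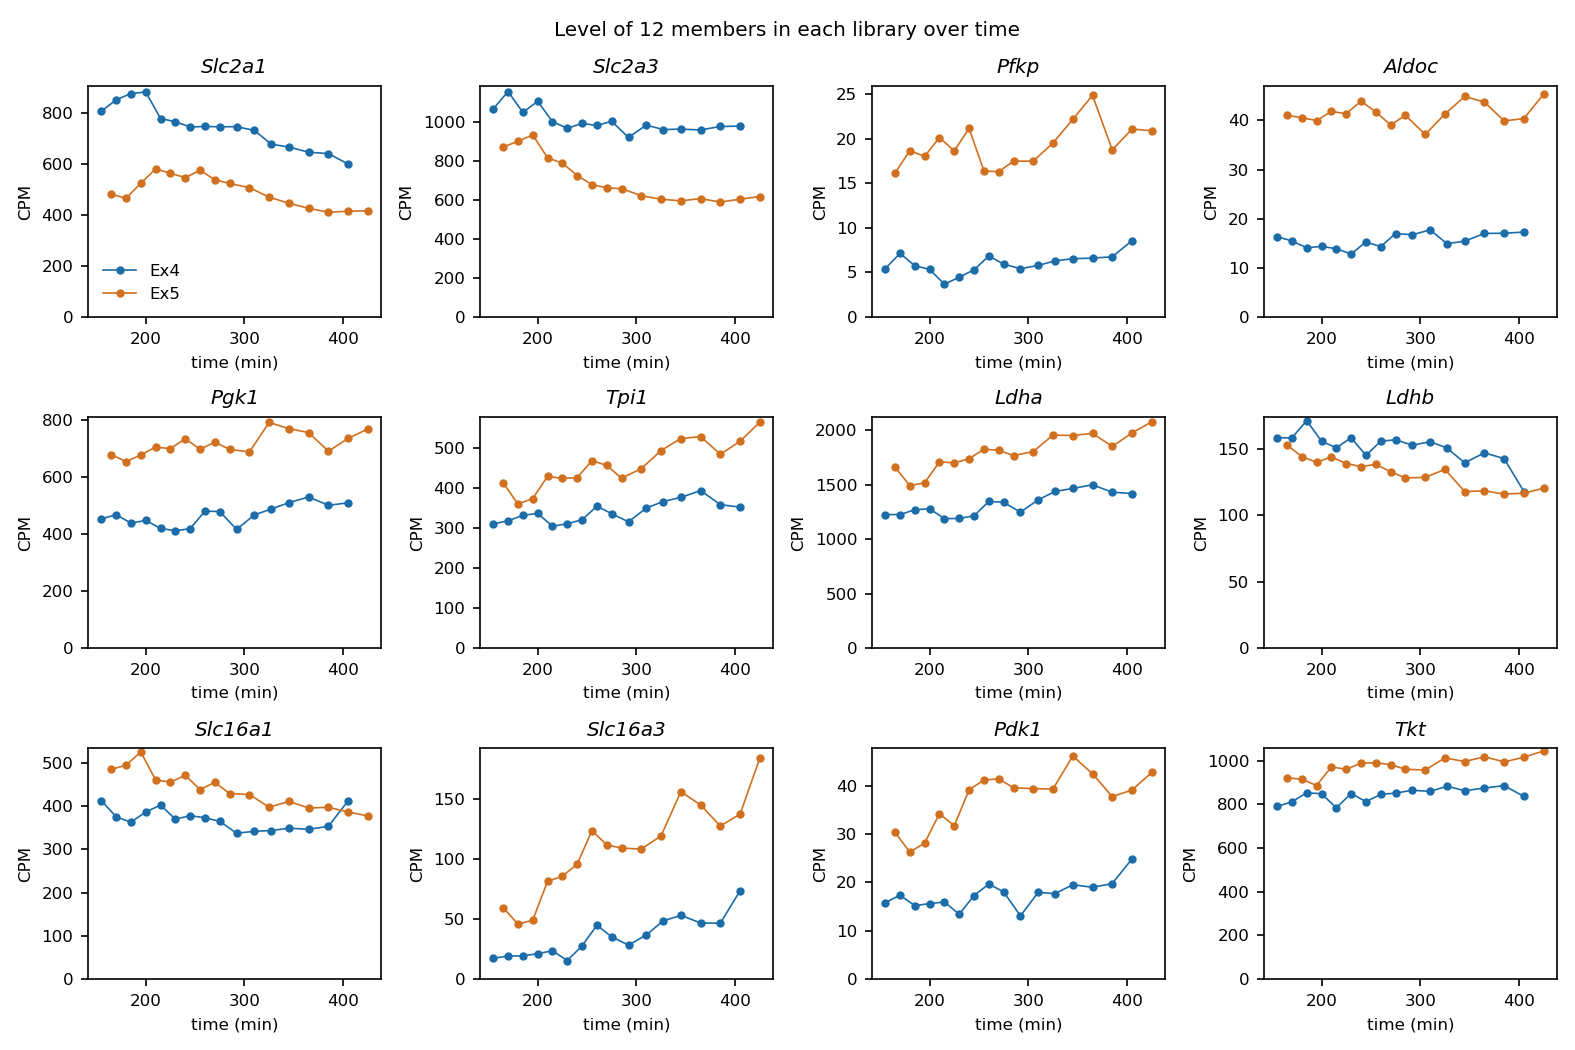
Level in CPM (vertical axis, linear from 0) against time in minutes for 12 members, 1 point per library, 16 libraries in Ex4 (blue) and 16 in Ex5 (orange). Slc16a3 climbs from 17.2 to 73.4 CPM over Ex4 and in Ex5 from 59.5 to 184 CPM, while Slc2a1, Slc2a3 and Ldhb end lower than they start.

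Both glucose carrier transcripts fell. Slc2a1 had a lowest, median and highest level of 601, 748 and 884 CPM in the 16 Ex4 libraries and of 412, 496 and 582 CPM in the 16 Ex5 libraries. It peaked in the library of 200 min in Ex4 and in that of 210 min in Ex5, and in each course the last 4 libraries lay below the first 4, without overlap. The trend of Slc2a1 was -0.18 ± 0.02 log2 per 100 min (SE, adjusted p = 1.9e-08, edgeR), or 0.734 times the level over 250 min. Slc2a3 ran from 919 CPM through a median of 981 to 1154 CPM in Ex4 and, in Ex5, from 588 through 659 to 931 CPM, and in each course the last 4 libraries again lay below the first 4. Its trend was -0.16 ± 0.02 (SE, adjusted p = 2.6e-08). Unlike a straight line, Slc2a3 in Ex5 dropped from 931 CPM at 195 min to 620.5 CPM at 305 min and then stayed between 588 and 616 CPM.

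Glycolysis had 12 of 16 members rising and 0 falling as reported, though Eno1 was called falling under some alternatives given below. The slopes of the 12 were 0.05 to 0.19 log2 per 100 min. The phosphofructokinases, which carry out the committed step, all rose: Pfkp by 0.19 ± 0.04 (SE, adjusted p = 0.00029, edgeR), the liver form Pfkl by 0.11 ± 0.02 (adjusted p = 6.7e-06) and the muscle form Pfkm by 0.11 ± 0.02 (adjusted p = 2.0e-07). Pfkp is a rare transcript here, at 3.69, 5.87 and 8.57 CPM (lowest, median, highest) in Ex4 and 16.2, 18.7 and 24.8 CPM in Ex5. Its Ex4 slope was not called without the last Ex4 library (0.16, adjusted p = 0.069). Hk1, which phosphorylates glucose, rose by 0.17 ± 0.02 (adjusted p = 3.1e-07), from 11.0 ± 0.759 CPM (SD, n = 4) in the first 4 to 14.0 ± 0.405 CPM in the last 4 Ex4 libraries and from 10.2 ± 0.302 to 12.9 ± 0.945 CPM in Ex5.

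Triose phosphate isomerase Tpi1 rose by 0.15 ± 0.02 log2 per 100 min (SE, adjusted p = 1.4e-09, edgeR). It stood at 304, 336 and 393 CPM (lowest, median, highest) in Ex4 and at 359, 452 and 563 CPM in Ex5. The last 4 libraries lay above the first 4 in both courses. The phosphoglycerate mutase Pgam1 gained 0.11 ± 0.01 log2 per 100 min, Pgk1 0.09 ± 0.02, Pkm 0.09 ± 0.01, Aldoa 0.07 ± 0.02 and the brain aldolase Aldoc 0.07 ± 0.02. The smallest called slopes were those of Hk2 at 0.07 ± 0.02 (adjusted p = 0.020) and Gapdh at 0.05 ± 0.02 (adjusted p = 0.030). The call on Gapdh was lost with upper-quartile factors (adjusted p = 0.078), with library totals (0.11) and within 165 to 405 min (0.15), and that on Hk2 with library totals (0.066) and within 165 to 405 min (0.12). The call on Hk2 was also lost without the first or the last library of either course, including the Ex4 library at 405 min (0.06, adjusted p = 0.065). Over these 4 libraries its adjusted p was 0.054 to 0.073. That on Gapdh was lost without any one of 7 libraries, those of 155, 170, 215 and 327 min in Ex4 and of 180, 325 and 425 min in Ex5 (adjusted p 0.0502 to 0.088).

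The 4 glycolysis genes with no trend call were Gpi1 (glucose 6-phosphate isomerase) at 0.03 ± 0.01, Pfkfb3, which makes the activator of phosphofructokinase, at 0.06 ± 0.03, Eno1 at -0.02 ± 0.01 and Eno2 at 0.05 ± 0.08 log2 per 100 min (SE). Eno1 was the second most abundant glycolysis transcript per kilobase and spanned 2415 to 2821 CPM in Ex4 and 2478 to 2722 CPM in Ex5. Its trend was called as a fall with upper-quartile factors (-0.03, adjusted p = 0.045, edgeR) and with library totals (-0.04, 0.014). A fit without terms for the Hes7 rhythm called that fall too (-0.03, 0.040). Pfkfb3 had an Ex4 slope of 0.13 ± 0.04 (adjusted p = 0.013, edgeR), not called without the last Ex4 library (adjusted p = 0.077). Its Ex5 slope was -0.02 ± 0.04, and the difference of slopes was not called (adjusted p = 0.052). The values of several members carry a limit of counting. Eno1 has a near-identical expressed copy, Eno1b, with 4.19% as many counts, and Gapdh shares stretches of at least 100 bases at 95% identity with 81 other genes, 77 of them pseudogenes. Of the 36 members 14 share such a stretch with another gene, among them Gpi1 and Ldha with 5 other genes each and Pgk1 with 4.

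**Figure D2:**
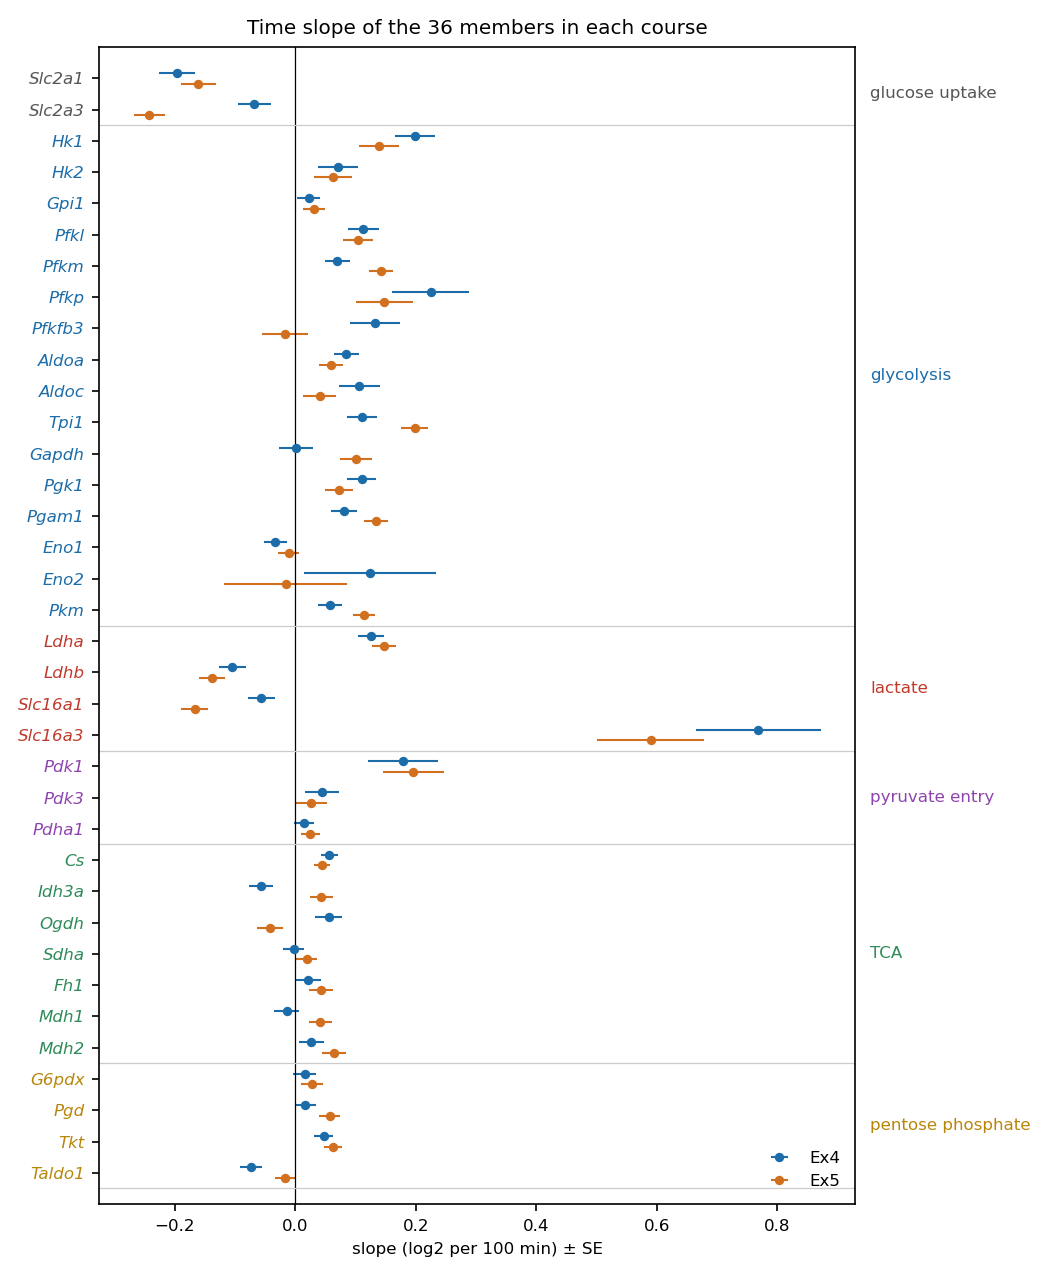
Slope of each of the 36 members in log2 per 100 min (horizontal axis) in Ex4 (blue) and Ex5 (orange), with bars of ± 1 SE and members grouped by branch. Slc16a3 stands apart at 0.77 in Ex4 and 0.59 in Ex5, and the glucose carriers, Ldhb and Slc16a1 lie left of 0 in both courses.

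The lactate branch split. Slc16a3, the monocarboxylate carrier MCT4 that exports lactate, had the largest slope of the 36 members. It rose from 19.2 ± 1.59 CPM (SD, n = 4) in the first 4 to 54.9 ± 12.7 CPM in the last 4 Ex4 libraries, a ratio of 2.86, and from 58.8 ± 16.1 to 148 ± 24.7 CPM in Ex5, a ratio of 2.52. No early library reached a late one in either course. Its trend was 0.68 ± 0.07 log2 per 100 min (SE, adjusted p = 6.65e-09, edgeR). Ldha rose by 0.14 ± 0.02 (adjusted p = 1.3e-09). Its lowest, median and highest levels were 1189, 1309 and 1499 CPM in Ex4 and 1492, 1810 and 2078 CPM in Ex5, and its late libraries lay above its early ones in both courses.

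The other pair of lactate genes fell. Ldhb, the lactate dehydrogenase subunit that favours pyruvate, went from 161 ± 6.97 CPM (SD, n = 4) in the first 4 to 137 ± 12.9 CPM in the last 4 Ex4 libraries and from 145 ± 5.51 to 118 ± 1.99 CPM in Ex5, with no overlap. Its trend was -0.12 ± 0.02 log2 per 100 min (SE, adjusted p = 4.6e-08, edgeR). Slc16a1, the carrier MCT1, changed by -0.11 ± 0.02 (adjusted p = 4.4e-07). In Ex5 its first 4 libraries stood at 491 ± 26.7 CPM (SD, n = 4) and its last 4 at 389 ± 9.24 CPM, without overlap. In Ex4 the same means were 384 ± 21.3 and 365 ± 31.6 CPM, and the sets overlapped. The last Ex4 library, at 405 min, departed from its course in several members. There Slc16a1 was at 412 CPM after 337 to 353 CPM in the 6 libraries before it, Ldhb was at its lowest with 118 CPM, Gapdh at its lowest with 575 CPM, and Slc16a3, Pdk1 and Pfkp were at their Ex4 highest. Without it 25 members were called for a trend: Gpi1 (adjusted p = 0.031, edgeR) and Fh1 (adjusted p = 0.020) were gained and Hk2 was lost. That library also had the highest share of mitochondrially encoded transcripts, 0.682%, whose part in these values was not tested.

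At the entry of pyruvate, 1 of 3 members rose. Pdk1, a kinase that switches pyruvate dehydrogenase off, gained 0.19 ± 0.04 log2 per 100 min (SE, adjusted p = 0.00024, edgeR). It was at 13.1, 17.5 and 24.8 CPM (lowest, median, highest) in Ex4 and at 26.2, 39.2 and 46.1 CPM in Ex5, and the last 4 libraries lay above the first 4 in both courses. Without the last Ex4 library its Ex4 slope moved from 0.18 to 0.12 and was not called (adjusted p = 0.15), while its trend was kept at 0.15 (adjusted p = 0.0019). The related kinase Pdk3 was at 0.04 ± 0.02 and the target of both, Pdha1, at 0.02 ± 0.01, neither called.

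The 7 TCA members moved little. Other TCA genes, of which 7 of 12 tested rose, are described below. Citrate synthase Cs, which brings acetyl groups into the cycle, rose by 0.05 ± 0.01 log2 per 100 min (SE, adjusted p = 0.00010, edgeR), and Mdh2 by 0.05 ± 0.01 (adjusted p = 0.0085). The other 5 members, Idh3a, Ogdh, Sdha, Fh1 and Mdh1, had slopes of -0.0067 to 0.032 and none was called. Cs moved within 308 to 353 CPM in Ex4 and 337 to 366 CPM in Ex5, so that its called slope came to a factor of 1.09 over 250 min.

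In the pentose phosphate pathway, the non-oxidative enzyme Tkt rose by 0.05 ± 0.01 log2 per 100 min (SE, adjusted p = 0.00012, edgeR) and Pgd, the NADPH-making phosphogluconate dehydrogenase, by 0.04 ± 0.01 (adjusted p = 0.014). The call on Pgd was lost with upper-quartile factors (adjusted p = 0.069) and with library totals (0.11). Transaldolase Taldo1, the partner of Tkt, changed by -0.05 ± 0.01 (adjusted p = 0.0043). G6pdx, the first and rate-limiting enzyme of the pathway, was at 0.02 ± 0.01 and not called. The range of Tkt was 785 to 886 CPM in Ex4 and 887 to 1045 CPM in Ex5, and that of Taldo1 190 to 228 and 183 to 205 CPM.

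The second comparison asks whether the courses differed in slope. For 4 of 36 members the difference Ex5 minus Ex4 was called, 1 upward and 3 downward (background 6.96% and 9.00% of genes). The slope of Slc2a3 was -0.24 ± 0.03 log2 per 100 min in Ex5 and -0.07 ± 0.03 in Ex4 (SE, difference -0.17 ± 0.04, adjusted p = 0.00093, edgeR), and its Ex4 slope alone was not called (adjusted p = 0.053). That Ex4 slope lay near the threshold. It was called as a fall with upper-quartile factors (adjusted p = 0.032, edgeR), library totals (0.032), a filter of 5 CPM (0.047) and limma-voom (0.049). Without terms for the Hes7 rhythm it was called as well (0.022, edgeR). The slope of Slc16a1 was -0.17 ± 0.02 in Ex5 and -0.06 ± 0.02 in Ex4 (difference -0.11 ± 0.03, adjusted p = 0.012), and its Ex4 slope was not called either (adjusted p = 0.057). It too was called as a fall with upper-quartile factors (adjusted p = 0.025, edgeR), library totals (0.028), a filter of 5 CPM (0.047) and limma-voom (0.049). Without the last Ex4 library the Ex4 slope of Slc16a1 was -0.10 and called (adjusted p = 0.00012), while the difference was -0.066 and not called (adjusted p = 0.078).

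Idh3a, a subunit of the NAD-dependent isocitrate dehydrogenase, and Ogdh, the 2-oxoglutarate dehydrogenase that acts after it in the cycle, had slopes of opposite sign in the courses. Idh3a went from 98.1 ± 5.63 CPM (SD, n = 4) in the first 4 to 89.2 ± 4.67 CPM in the last 4 Ex4 libraries and from 91.2 ± 2.95 to 94.35 ± 2.28 CPM in Ex5. The difference of slopes was 0.10 ± 0.03 log2 per 100 min (SE, adjusted p = 0.0086, edgeR). The Idh3a slope was -0.06 in Ex4 (adjusted p = 0.026) and 0.04 in Ex5, the latter not called. The Ex4 call was lost within 165 to 405 min (adjusted p = 0.11) and without any one of 3 libraries. Ogdh went from 147 ± 3.25 to 155 ± 8.04 CPM (SD, n = 4) in Ex4 and, in Ex5, from 148 ± 3.77 to 138 ± 9.52 CPM, with a difference of -0.10 ± 0.03 (adjusted p = 0.021). Without the Ex4 library at 385 min that difference was -0.082 and not called (adjusted p = 0.068). Neither Ogdh slope was called alone, with 0.06 in Ex4 (adjusted p = 0.054) and -0.04 in Ex5 (adjusted p = 0.095). Within 165 to 405 min both were called, at 0.06 in Ex4 (adjusted p = 0.038, edgeR) and -0.07 in Ex5 (0.0074). The Ex5 slope was also called with upper-quartile factors (0.044), with library totals (0.019) and without terms for the Hes7 rhythm (0.043). For each gene the early and late libraries overlapped in both courses.

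The third comparison is of level. In Ex5 most glycolysis, lactate and pyruvate entry genes stood higher than in Ex4, and the glucose carriers lower. The difference Ex5 minus Ex4 at 285 min was called higher for 21 members and lower for 9, and 6 were not called, with a median of 0.10 log2. Of all tested genes 27.3% were higher and 27.6% lower in Ex5, with a median of -0.0021. By branch, 12 of 16 glycolysis genes were higher and 2 lower, 3 of 4 lactate genes higher and 1 lower, 3 of 3 pyruvate entry genes higher, 0 of 2 glucose carriers higher and 2 lower, 1 of 7 TCA genes higher and 2 lower, and 2 of 4 pentose phosphate genes higher and 2 lower.

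**Figure D3:**
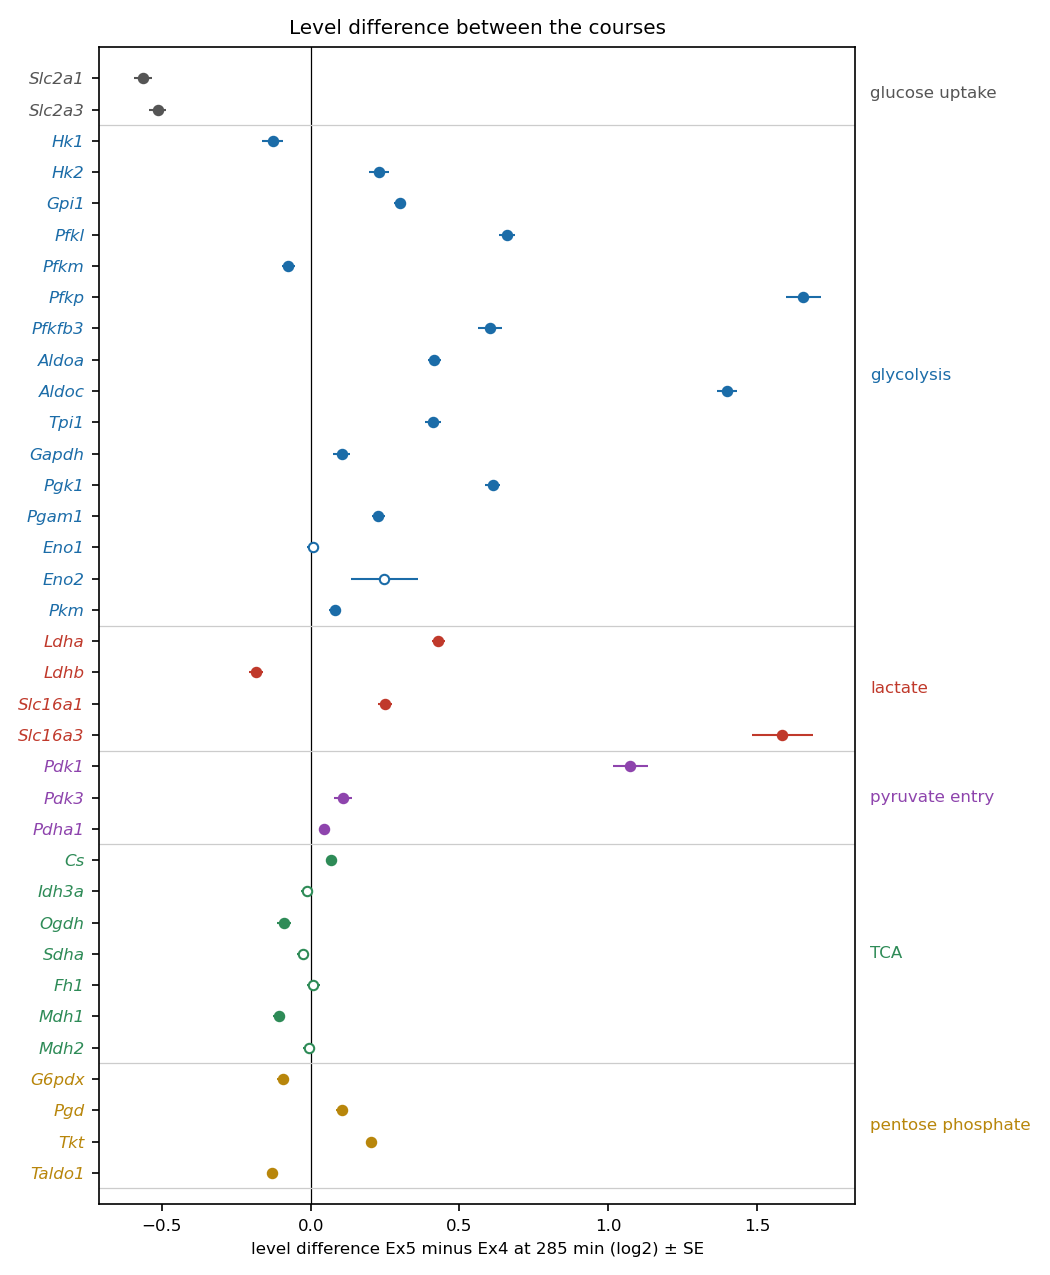
Difference in level between the courses, Ex5 minus Ex4 at 285 min, in log2 (horizontal axis) with bars of ± 1 SE for each of the 36 members, coloured by branch. Filled points have an adjusted p under 0.05 and open points do not. Pfkp, Slc16a3, Aldoc and Pdk1 lie beyond 1, while the TCA genes lie between -0.11 and 0.07.

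Pfkp had the largest difference, 1.66 ± 0.06 log2 (SE, adjusted p = 5.1e-24, edgeR), a factor of 3.15. Every Ex5 library, at 16.2 CPM or more, lay above every Ex4 library, at 8.57 CPM or less. Slc16a3 differed by 1.59 ± 0.10 (adjusted p = 2.7e-13), a factor of 3.00, and its highest Ex4 library at 73.4 CPM lay above the 3 lowest Ex5 libraries at 45.8 to 59.5 CPM. Aldoc differed by 1.40 ± 0.03 (adjusted p = 4.4e-31), with 12.8 to 17.7 CPM in Ex4 and 37.1 to 45.4 CPM in Ex5. Pdk1 differed by 1.07 ± 0.06 (adjusted p = 1.3e-16), with no Ex4 library above 24.8 CPM and no Ex5 library below 26.2 CPM. These 4 genes are among the less abundant of their branches per kilobase.

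The next members were Pfkl at 0.66 ± 0.03 log2 (SE), Pgk1 at 0.61 ± 0.02 and Pfkfb3 at 0.60 ± 0.04, each with all Ex5 libraries above all Ex4 libraries. Ldha, Aldoa and Tpi1 differed by 0.43 ± 0.02, 0.42 ± 0.02 and 0.41 ± 0.03, and Gpi1 by 0.30 ± 0.02. Neighbouring steps of glycolysis thus differed to unequal extents: Gapdh stood at 0.10 ± 0.03 and Pkm at 0.08 ± 0.02, and Eno1, with 2582 ± 117 CPM (SD, n = 16) in Ex4 and 2587 ± 77.9 CPM in Ex5, was not called (0.0079 ± 0.019). Hk2 and Pgam1 stood at 0.23 ± 0.03 and 0.23 ± 0.02, and Eno2 at 0.25 ± 0.11, not called (adjusted p = 0.058, edgeR). Hk1 and Pfkm were lower in Ex5, at -0.13 ± 0.04 and -0.07 ± 0.02. The kinase Pdk3 and its target Pdha1 differed by 0.11 ± 0.03 and 0.05 ± 0.02, and the call on Pdha1 was lost with library totals (adjusted p = 0.29).

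Both glucose carriers were lower in Ex5. Slc2a1 differed by -0.56 ± 0.03 log2 (SE, adjusted p = 1.7e-17, edgeR) and Slc2a3 by -0.51 ± 0.03 (adjusted p = 4.4e-18), and Ex4 stood 1.48 and 1.43 times higher. Slc2a1 had no Ex5 library above 582 CPM and no Ex4 library below 601 CPM. For Slc2a3 the courses touched, with 931 CPM as the highest Ex5 and 919 CPM as the lowest Ex4 value. Ldhb and Taldo1 were lower, at -0.18 ± 0.02 and -0.13 ± 0.02, while Slc16a1 was higher by 0.25 ± 0.02. Of the 5 members that fell over time 4 were lower in Ex5, and of the 19 that rose 16 were higher in Ex5, 2 lower and 1 not called. Both counts come from one fit to the same libraries.

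Cs was higher in Ex5 by 0.07 ± 0.02 log2 (SE) and Ogdh and Mdh1 lower, at -0.09 ± 0.02 and -0.11 ± 0.02. Idh3a, Sdha, Fh1 and Mdh2 lay between -0.03 and 0.0092 and were not called. In the pentose phosphate pathway Tkt and Pgd were higher by 0.20 ± 0.02 and 0.10 ± 0.02, and G6pdx and Taldo1 lower. The courses share 4 minutes, 345, 365, 385 and 405, at which libraries can be set side by side without a fitted slope. At these Slc16a3 stood at 53.0, 46.7, 46.5 and 73.4 CPM in Ex4 and at 156, 145, 127 and 137 CPM in Ex5, and Slc2a1 at 668, 648, 642 and 601 CPM against 447, 427, 412 and 416 CPM. A fit to those 8 libraries alone called 20 of 36 members. In it the calls on both glucose carriers, Pfkp, Aldoc, Slc16a3 and Pdk1 were kept and those on 10 others were lost. Among the 10 the difference was larger there than in the full fit for Hk1 (-0.20 against -0.13), Pkm (0.12 against 0.08) and Pdha1 (0.08 against 0.05), and similar for G6pdx (-0.09 in both). It was smaller for Slc16a1 (0.12 against 0.25), Pdk3 (0.015 against 0.11), Cs (0.04 against 0.07), Mdh1 (-0.05 against -0.11) and Taldo1 (-0.09 against -0.13), and of opposite sign for Pfkm (0.0065 against -0.07). The differences of Pfkfb3, Gapdh and Ogdh there were 0.36, 0.21 and -0.22 log2.

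The fourth comparison asks whether any member cycled with the segmentation clock. Hes7 had a fitted period of 135 min (95% interval 129 to 141) and peaks at 212 and 347 min in Ex4 and 237 and 372 min in Ex5, with a peak-to-trough amplitude of 2.01-fold. No member was called rhythmic at the period of Hes7 (0 of 36, edgeR, against a background of 1.32% of genes), and 3 fell below 0.05 before adjustment. The test took cosine and sine together, so it covered any lag from the Hes7 peak that both courses shared. The count was also 0 with DESeq2 and with limma-voom. The members' median amplitude was 1.04-fold and all genes' median 1.05-fold. Eno2, at 1.34 CPM, had the widest amplitude, 1.19-fold, with an adjusted p of 0.70.

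**Figure D4:**
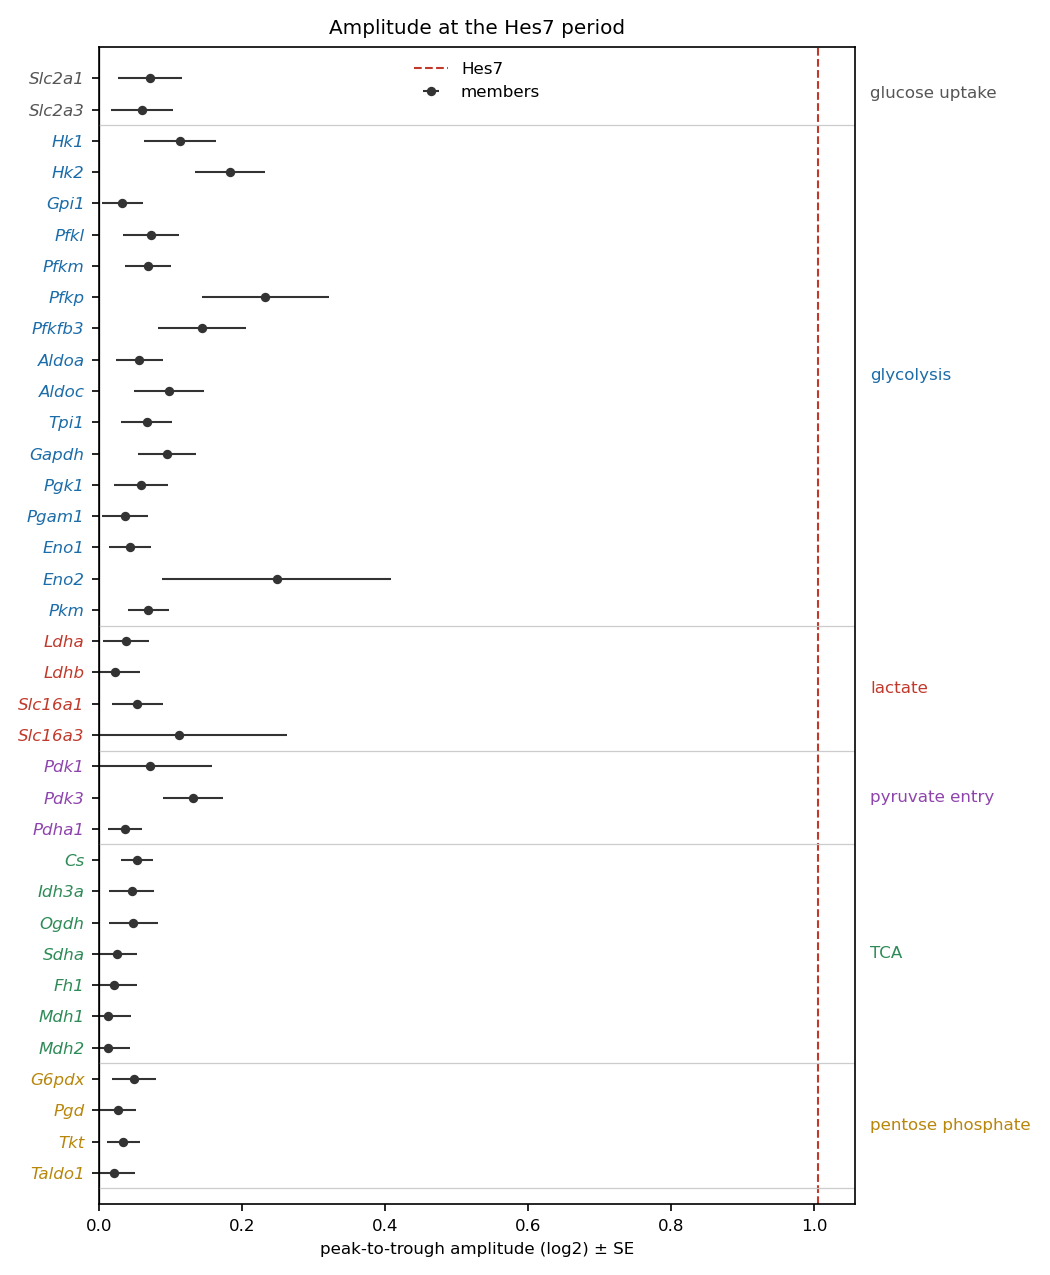
Peak-to-trough amplitude at the Hes7 period in log2 (horizontal axis) with bars of ± 1 SE for each of the 36 members, with the amplitude of Hes7 as a dashed line at 1.01. The members lie between 0.013 and 0.25.

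Hk2 came nearest, with an amplitude of 0.18 ± 0.05 log2 (SE, unadjusted p = 0.0033, adjusted p = 0.14, edgeR). It was highest in Ex5 at 225 min with 267 CPM, fell to 209.6 CPM at 325 min and was back at 242 CPM at 345 min. In Ex4 no such wave stands out, the values after the first library lying between 186 and 217 CPM. The fitted amplitude was 1.06-fold in Ex4 and 1.23-fold in Ex5. Hk2 was called at a period of 150 min (adjusted p = 0.029) and when the Ex4 library at 365 min was left out (adjusted p = 0.025). Pdk3 (1.10-fold, adjusted p = 0.25) and Pfkp (1.17-fold, adjusted p = 0.37) were the other two. A difference in rhythm between the courses was called for 0 members and for 0% of all genes, with 4 members and 618 genes below 0.05 before adjustment (0 genes also with DESeq2 and with limma-voom).

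Members also deviated together from their fitted curves. The deviation is the log2 CPM of a library minus the fitted value, and correlations over the 32 libraries are given as a description. They share the scaling and depth of each library. The deviations also hold any bend over time that a straight slope does not follow, and the part of such bends was not tested. The median Pearson correlation was 0.23 over the 630 pairs of members, 0.33 within a branch and 0.19 between branches, against -0.00017 over all pairs of tested genes. The tested genes reach down to the filter of 1 CPM and were not matched to the members in level. It was 0.47 within the TCA cycle, 0.47 within the pentose phosphate pathway, 0.33 within glycolysis and -0.04 within the lactate branch.

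**Figure D5:**
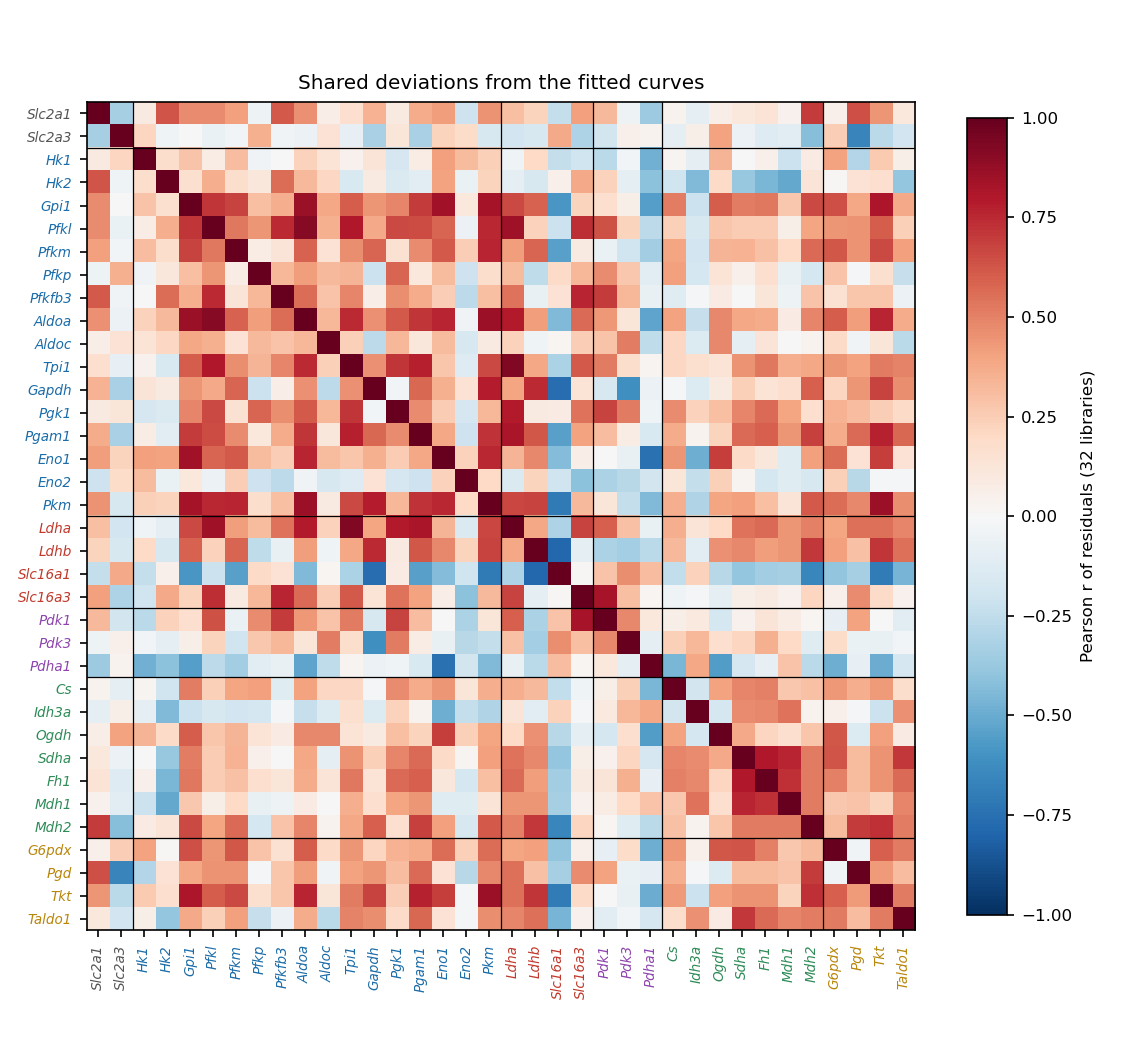
Pearson correlation over 32 libraries of the deviations from the fitted curves for each pair of the 36 members (red positive, blue negative, black lines between branches). A block of red holds Gpi1, Pfkl, Aldoa, Tpi1, Pkm, Ldha and Tkt, while Slc16a1 is blue against most of them.

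The pair with the closest deviations was Tpi1 and Ldha, with r = 0.93 (Spearman 0.91, and 0.91 without the 2 libraries farthest from the median), and 0.95 within Ex4 and 0.92 within Ex5. Pfkl and Aldoa followed with 0.91, then Gpi1 and Aldoa with 0.86. Slc16a3 and Pdk1, from different branches, had r = 0.82 (0.81 without the 2 farthest libraries), with 0.76 in Ex4 and 0.90 in Ex5. Ldhb and Slc16a1 went in opposite directions, with r = -0.79 (-0.65 without the 2 farthest libraries), and -0.85 in Ex4 and -0.60 in Ex5. The glucose carriers Slc2a1 and Slc2a3 had r = -0.33 over both courses, with 0.04 within Ex4 and -0.44 within Ex5. In Ex5 their deviations bent over time in opposite ways. Those of Slc2a1 were -0.21 at 180 min, 0.16 at 255 min and -0.13 at 385 min. For Slc2a3 they were 0.17 at 195 min, -0.14 at 325 min and 0.17 at 425 min.

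A pair of Ex4 libraries 30 min apart carried the widest deviations. At 230 min Slc16a3 was at 15.4 CPM, its lowest in Ex4, with a deviation of -0.72 log2, and Pdk1 at -0.32 and Pfkfb3 at -0.22. At 260 min Slc16a3 was at 44.7 CPM with a deviation of 0.62, and Pfkp was at 0.31 and Pdk1 at 0.18. Without both libraries the trend of Slc16a3 was 0.67 (adjusted p = 1.1e-09, edgeR), that of Pdk1 0.18 (adjusted p = 0.00033), and 24 members were called for a trend, as with them.

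Other genes of these pathways, from lists of 99 genes in which 76 were tested, were called in both directions. Of the 76, 26 rose and 15 fell, with a median of 0.03 log2 per 100 min. As a background for this and the counts below, 26.7% of all tested genes rose and 26.5% fell. The steepest were Gys1, the glycogen synthase of most tissues, at 0.31 ± 0.02 (SE, adjusted p = 7.5e-19, edgeR), Pfkfb4 at 0.19 ± 0.03, Gfpt1, the entry to hexosamine synthesis, at 0.19 ± 0.02 and Rpe, a pentose phosphate epimerase, at -0.19 ± 0.02. Of 12 other TCA genes 7 rose and 0 fell, led by the mitochondrial isocitrate dehydrogenase Idh2 at 0.15 ± 0.01. Of 10 other genes of pyruvate entry 2 rose and 2 fell, among them the phosphatase Pdp2, which opposes Pdk1, at -0.11 ± 0.02. Pdk4 was not tested, at a mean of 0.102 CPM. Of 2 other lactate genes Bsg, the chaperone of the lactate carriers, rose by 0.03 ± 0.01, a call lost under 4 alternatives (adjusted p 0.066 to 0.22) and without the Ex4 library at 327 min (0.059) or the Ex5 library at 425 min (0.056), and the related chaperone Emb changed by -0.07 ± 0.02.

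Among 14 regulators tied to HIF and MYC, 5 rose and 5 fell (background 26.7% and 26.5% of genes). Egln1, a prolyl hydroxylase that marks HIF1A for decay, rose by 0.15 ± 0.03 log2 per 100 min (SE, adjusted p = 0.00018, edgeR) and was higher in Ex5 by 0.55 log2. Arnt, the partner of HIF1A, rose by 0.12 ± 0.01 and was lower in Ex5 (-0.20 log2). Txnip, which restrains glucose uptake, changed by -0.12 ± 0.02 and was higher in Ex5 by 0.15. The Hif1a transcript itself, chosen after its values were seen, was at -0.06 ± 0.01 (adjusted p = 0.00059), with no call on its level difference (0.04, adjusted p = 0.088).

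The counts are per gene, so isoforms such as the M1 and M2 forms of Pkm were not resolved. On GENCODE M21 (GRCm38), 13 members share exon bases with another gene, 11 of them with a gene on the opposite strand. Pkm shares 767 exon bases with Gm49759 and Pfkm 341 with Gm26513, both on the same strand, where a strand setting would not separate them. Pfkp shares 748 exon bases with Pitrm1, Gpi1 741 with Gm26762, Pdha1 603 with Map3k15 and G6pdx 418 with Ikbkg, all on the opposite strand. Whether the counting used strand is not stated, and reads from such stretches may be shared. Slc16a3 (chr11:120948480-120960868, plus strand, 9 exon blocks), Pdk1 (chr2:71873224-71903858, plus strand, 13 exon blocks), Aldoc (chr11:78322968-78327781, plus strand, 9 exon blocks) and Slc2a3 (chr6:122727809-122801640, minus strand, 14 exon blocks) have no such overlap and no near-identical copy.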

How the data were processed

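RNA of 32 dishes of mouse PSM cells was sequenced after a strand-specific mRNA kit from 200 ng of total RNA, per the labels' protocols. The authors deposited raw read counts per gene symbol. Per the submitters' processing notes these involved bcl2fastq 2.17.1.14, cutadapt 1.14, HISAT2 2.1.0, HTSeq 0.6.1 and the build mm10. For the annotation and the strand setting the sources used here give nothing. The labels do not say that libraries are separate differentiations within a course, so p-values measure the spread of libraries around the fitted curves.

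CPM used TMM factors (edgeR 4.0.16, R 4.3.3), and log2 CPM a prior count of 0.5. Genes reaching 1 CPM in 16 or more libraries entered edgeR's robust quasi-likelihood fit, with 1 intercept and 1 linear slope for each course (time 0 at 285 min) plus a cosine and a sine of the Hes7 phase common to both, whose period was searched from 90 to 240 min. Standard errors derive from the F statistic. Benjamini-Hochberg adjusted p-values under 0.05 over all tested genes were called. The fit was also run on simulated counts, drawn independently for each gene and library. Those hold none of the shared deviations described above and cannot show their effect.

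The members, gene lists and tests were chosen with earlier results of these data known. Of the members all were named, with full statistics for up to 10 of the largest effects per comparison, and up to 3 called genes per wider list with the steepest trends at 5 CPM or more. Alternatives were RLE, upper-quartile and total scaling, other filters, DESeq2 1.42.0, limma-voom (limma 3.58.1), other models of time, and each library left out. Positions come from GENCODE M21, promoters from RefSeq on GRCm38.p6, and near-identical stretches from BLAST+ 2.17.0. The reporter's luminometer record was not analysed here.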

Additional observations from a re-analysis of the deposited data

Results flagged for a closer look

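The slope over time differed between the courses in 4 of 36 members, by the test of the difference Ex5 minus Ex4 itself (edgeR's quasi-likelihood test, adjusted over all genes). For 1 the difference was upward and for 3 downward, where of all tested genes 6.96% were called upward and 9.00% downward. For Slc2a3 the difference was -0.17 log2 per 100 min (adjusted p = 0.00093), with -0.07 in Ex4, not called, and -0.24 in Ex5. For Slc16a1 it was -0.11 (adjusted p = 0.012), with -0.06 in Ex4, not called, and -0.17 in Ex5. For Idh3a it was 0.10 (adjusted p = 0.0086), with -0.06 in Ex4, called, and 0.04 in Ex5, not called. For Ogdh it was -0.10 (adjusted p = 0.021), with 0.06 in Ex4 and -0.04 in Ex5, neither called. The Ex4 slopes of Slc2a3 and Slc16a1 and both slopes of Ogdh were called under some alternatives, given with the second comparison. The differences of Slc2a3 and Idh3a stayed past the threshold with each of the 32 libraries left out in turn, with adjusted p-values up to 0.0037 and 0.029. The difference of Slc16a1 did not without the Ex4 library at 405 min (adjusted p = 0.078), nor that of Ogdh without the Ex4 library at 385 min (adjusted p = 0.068).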

How the results depend on the processing

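With other scalings, filters, tests and models of time, 22 to 27 members were called for a trend (24 as reported), 18 to 22 in Ex4 (20), 20 to 23 in Ex5 (21), 4 to 5 for a slope difference (4), 20 to 31 for a level difference (30), and 0 for a difference in rhythm (0). With each library left out the ranges were 22 to 26, 17 to 23, 21 to 24, 3 to 7, 30 to 31 and, for rhythm difference, 0 to 0. The 7 slope differences came without the Ex4 library at 215 min. Members called rhythmic numbered 1 at a period of 150 min (Hk2) and 0 to 1 with a library left out. The highest member was the same in 5 of 6 branches without division by length. Apart from fits with 1 library left out, calls on single genes were gained 23 times and, with the sign kept, lost 37 times. Gained calls include the level of Sdha with library totals (-0.05, adjusted p = 0.0086, edgeR) and that of Eno2 with limma-voom (0.26, 0.047). Without terms for the Hes7 rhythm, trends of Fh1 (0.03, 0.031, edgeR) and Pfkfb3 (0.08, 0.022) were gained. Directions reversed in small values only, all but 1 not called as reported. For trends these were Eno2 within 165 to 405 min (-0.0024), Ogdh with upper-quartile factors (-0.0037), with library totals (-0.0086) and within 165 to 405 min (-0.0056), Sdha with upper-quartile factors (-0.0022) and totals (-0.0070), and Mdh1 with totals (-0.0016). For levels these were Eno1 with totals (-0.017), within 165 to 405 min (-0.0013) and at the shared minutes (-0.0035), Fh1 with totals (-0.016) and at the shared minutes (-0.012), and, at the shared minutes, Eno2 (-0.0022), Idh3a (0.070), Mdh2 (0.014) and Pfkm (0.0065). Pfkm was called lower as reported. With a library left out, reversals occurred for the levels of Fh1 (-0.0014 to 0.019) and Mdh2 (-0.019 to 0.0020) and the trend of Ogdh (-0.0078 to 0.017). At the 4 shared minutes alone the level calls of Hk1, Pkm, Slc16a1, Pdk3, Pdha1, Cs, Mdh1, G6pdx and Taldo1 were also lost, of which those of Hk1, Pkm and Pdha1 differed by more there than as reported and G6pdx by about as much. The cause was not tested. Time point numbers do not pair the libraries: same-numbered libraries are 10 to 20 min apart, and their deviations correlated at -0.16 to 0.15 (median -0.02), over 0.1 in 3 of 16 pairs, with 0 of 16 Ex4 libraries closest to their own number. With the time point number as a replicate block, 29 level differences were called, and that of Pfkm was not (-0.07, adjusted p = 0.056). Leaving out the Ex4 libraries at 230 and 260 min together was chosen after seeing the data and gave 24, 20, 21, 4, 30, 0 and 0 calls in the order trend, Ex4, Ex5, slope difference, level, rhythm and rhythm difference. Scaling moved the median of all genes by at most 0.025 log2 in size (-0.025 for the level with totals). Depth limits the rare Eno2 most (1.34 CPM), whose trend had an SE of 0.08.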
